A study of Homo sapiens with 4 samples.

Results

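The 4 inhibitor of DNA binding genes ID1, ID2, ID3 and ID4 were examined together with BAMBI, GREM1 and ATOH8, 3 further genes that bone morphogenetic proteins (BMPs) are known to induce. The members were the probe sets whose platform annotation names exactly 1 of these 7 genes, which gave 15 of the 41930 probe sets and 7 of the 18304 genes in the table. The set was chosen by family and pathway with the results of the comparison below already known, and was selected on the differences between the groups in so far as BAMBI and ID2 were among the genes with the largest increases. The differences of the 7 genes between the groups are therefore given as a description. A further probe set, 213931_at, names both ID2 and ID2B and was left out.

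The cells were U87, an established human glioma line, carrying a knockdown of QK (the QKI gene, which encodes an RNA-binding protein) in treated and control samples alike. One group of 2 samples had been transduced with miR-20a, which belongs to the miR-17 family of microRNAs, and the other group of 2 with miR-NT, a scrambled microRNA with no intended target. The design asks how transcript levels respond to added miR-20a where QK is depleted. The labels do not give the knockdown construct, the vector, the time after transduction or whether the samples of a group were separate cultures, so the spread between samples may be technical, and no array of cells with intact QK was analysed here.

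BMPs bind paired serine/threonine kinase receptors, which phosphorylate SMAD1, SMAD5 and SMAD9, and these enter the nucleus with SMAD4 and switch on a small set of early genes. The ID genes are the best known of them. ID proteins carry a helix-loop-helix but no DNA-binding region, so they pair with E proteins and other basic helix-loop-helix (bHLH) factors and keep them off DNA, and in neural stem cells and glioma they are known for holding back differentiation. The pathway also induces its own brakes, among them the decoy receptor BAMBI, the secreted antagonist Gremlin-1 (GREM1) and the inhibitory SMADs.

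The microRNA supplied and promoter windows of 3 of the genes are shown here. The labels name no arm of miR-20a. The 5p arm is given, with its seed (bases 2 to 8) in capitals, since the seed is what pairs with targets. Promoter windows are the 250 bases before the annotated start on the gene's strand, from RefSeq on GRCh38.p14. Capitals mark matches, on either strand, to GGCGCC, a motif of BMP-activated SMADs that reads the same on both strands, and to GTCTG or its reverse complement CAGAC, the SMAD-binding element. BAMBI and GREM1 are shown because their windows held both motifs, and ID3 because it was the only one of ID1, ID2 and ID3 with a match.
hsa-miR-20a-5p (chr13:91351072-91351094, plus strand): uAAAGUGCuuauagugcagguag
BAMBI (chr10:28677271-28677520, plus strand): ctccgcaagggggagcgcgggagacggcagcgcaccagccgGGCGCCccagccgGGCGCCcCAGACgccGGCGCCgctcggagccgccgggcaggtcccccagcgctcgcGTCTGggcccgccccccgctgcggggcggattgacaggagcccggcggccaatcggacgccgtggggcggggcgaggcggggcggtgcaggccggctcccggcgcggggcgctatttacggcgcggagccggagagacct
GREM1 (chr15:32717754-32718003, plus strand): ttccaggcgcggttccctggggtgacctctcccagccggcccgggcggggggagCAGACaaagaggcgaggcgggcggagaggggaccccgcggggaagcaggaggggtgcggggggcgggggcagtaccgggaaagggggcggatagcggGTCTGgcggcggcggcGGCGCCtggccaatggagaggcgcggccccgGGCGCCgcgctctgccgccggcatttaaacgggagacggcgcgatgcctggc
ID3 (chr1:23559502-23559751, minus strand): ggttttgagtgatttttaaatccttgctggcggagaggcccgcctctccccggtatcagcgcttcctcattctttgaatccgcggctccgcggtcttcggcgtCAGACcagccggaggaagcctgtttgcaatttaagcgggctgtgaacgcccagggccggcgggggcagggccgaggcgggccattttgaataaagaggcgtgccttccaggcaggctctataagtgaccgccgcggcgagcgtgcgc

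GGCGCC occurred 3 times in the BAMBI window, starting 209, 196 and 181 bases before the gene's start, and 2 times in that of the upstream GREM1 start, 83 and 52 bases before it. The windows of ID1, ID2, ID3, ID4, ATOH8 and the downstream GREM1 start held no GGCGCC. Among 34788 distinct promoter windows of this length, 16.4% held at least 1 GGCGCC and 3.1% held 2 or more. These windows were rich in G and C, at 81.2% for BAMBI and 76.8% for GREM1, and among the 3522 windows with at least 75% G and C, 50.6% held GGCGCC and 15.0% held 2 or more. GTCTG or CAGAC occurred 2 times each in the BAMBI and upstream GREM1 windows and 1 time each in those of ID3, ID4 and the downstream GREM1 start, against 38.0% of all windows with at least 1 and 8.8% with 2 or more. Among the windows with at least 75% G and C, 26.3% held GTCTG or CAGAC and 4.4% held 2 or more. A match is a string of letters and not a measured binding site, and the known BMP-responsive enhancer of ID1 lies further upstream than these windows reach. Seed matches in the transcripts were not examined here.

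In miR-20a cells, ID1, ID2, ID3, BAMBI and GREM1 stood above their miR-NT levels on both arrays, by 1.72-fold to 2.25-fold by each gene's brightest probe set. ATOH8 was 1.51-fold higher by its brightest probe set, with smaller differences on its others. ID4, the remaining family member, was not higher. Values are log2 probe-set levels as deposited, where a difference of 1 is a doubling, and differences are miR-20a minus miR-NT with the standard error (SE) of a limma fit over all 41920 probe sets other than array controls. In whole cultures, more cells with a transcript and more of it per cell cannot be told apart.

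Of the 15 probe sets, 9 had both miR-20a arrays above both miR-NT arrays, as had 21.7% of all probe sets, 2 had both below, as had 27.2%, and 4 overlapped. At a limma adjusted p under 0.05 (Benjamini-Hochberg over all probe sets), 5 of the 15 were higher and 0 lower, where 0.119% of all probe sets were higher and 0.0167% lower. Those 5 were the brighter ID2 probe set, ID3, BAMBI and both probe sets of GREM1. With the brightest probe set standing for each gene (the highest mean level), 5 of the 7 genes were past the same threshold and higher (ID1, ID2, ID3, BAMBI and GREM1) and 0 were lower, where 0.366% of 18304 genes were higher and 0.0601% lower, or 67 and 11 genes. After quantile normalization the counts over all genes were 73 higher and 38 lower, and after cyclic loess 62 and 27, with 5 of the 7 genes past the threshold each time. All of these calls were lost without miR-NT replicate 1 and without miR-NT replicate 2, settings in which 0 of 18304 genes passed (limma, with an unadjusted p under 0.05 in 1916 and 2841 genes). Without miR-20a replicate 1, only the ID3 probe set of the 15 stayed past the threshold, and 5 of the 7 genes did.

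**Figure D1:**
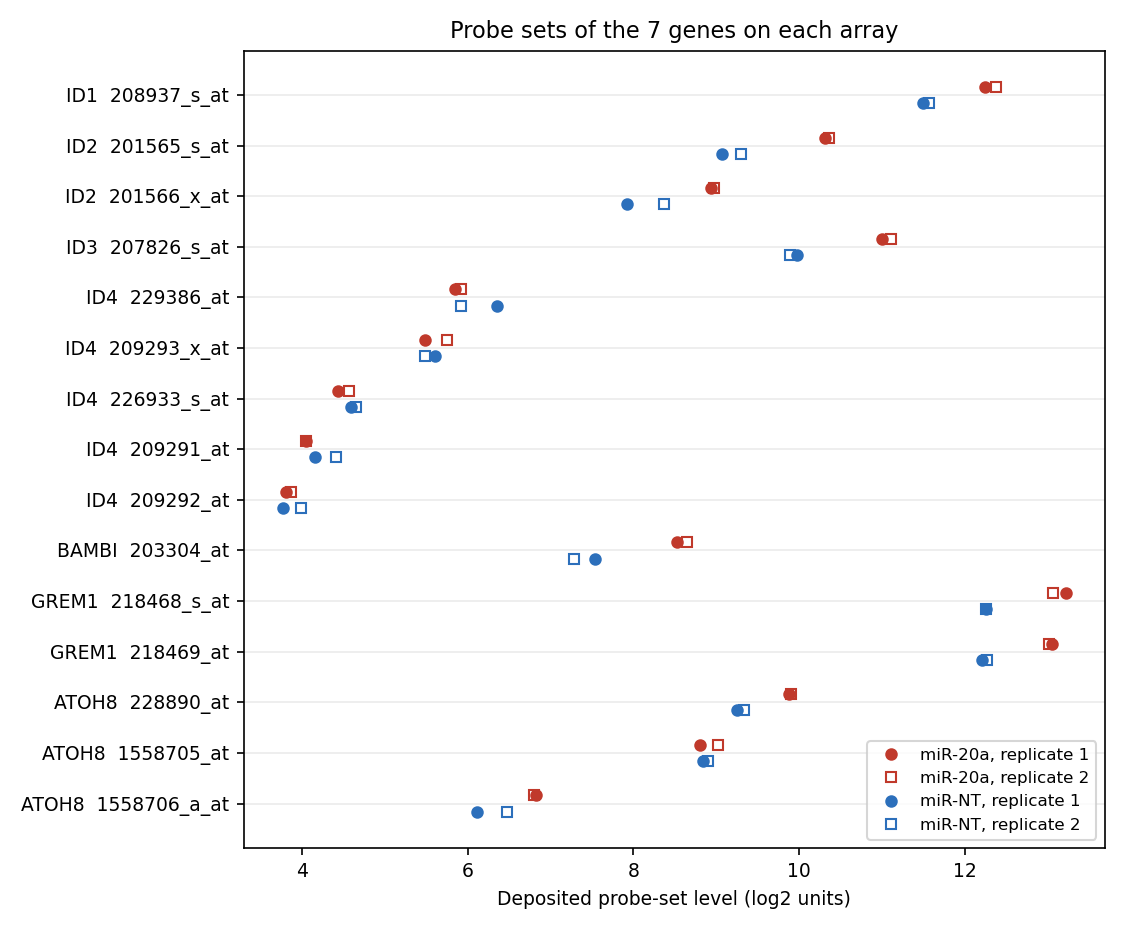
Deposited log2 level (horizontal axis) of each of the 15 probe sets on each array, with miR-20a arrays in red above miR-NT arrays in blue; filled circles are replicate 1 and open squares replicate 2. The red points of ID1, ID2, ID3, BAMBI and GREM1 all lie to the right of the blue ones, while no ID4 probe set has both red points right of both blue ones.

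ID1, the family member best known from glioma stem cells and vessel growth, was read by a single probe set, 208937_s_at. Its level was 12.25 and 12.37 log2 units on the miR-20a arrays, against 11.49 and 11.57 on the miR-NT arrays. The groups did not overlap: the lower miR-20a array stood 0.68 above the higher miR-NT array, while the arrays of a group differed by 0.13 and 0.07. The difference was 0.78 ± 0.09 (SE), or 1.72-fold. ID1 was past the threshold in the gene-level fit and not in the fit over all probe sets.

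ID2, which besides bHLH factors is known to bind the retinoblastoma protein, was read by a pair of probe sets. The brighter, 201565_s_at, was at 10.32 and 10.37 log2 units in miR-20a cells and at 9.07 and 9.30 in miR-NT cells. The other, 201566_x_at, whose suffix marks probes that may also match other transcripts, was at 8.94 and 8.98 in miR-20a cells and at 7.93 and 8.37 in miR-NT cells. Both showed close miR-20a arrays, 0.05 and 0.04 apart, and wider miR-NT arrays, 0.23 and 0.44 apart, with miR-NT replicate 1 the lower on each. The differences were 1.16 ± 0.11 (2.24-fold) and 0.81 ± 0.15 (1.76-fold). The probe set shared with ID2B was at 5.31 and 5.13 in miR-20a cells and at 4.96 and 5.31 in miR-NT cells, so its groups overlapped.

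ID3, a partner of ID1 in neural progenitors and vessels, had 1 probe set, at 11.00 and 11.11 log2 units in miR-20a cells and at 9.98 and 9.89 in miR-NT cells. Its groups lay 1.03 apart at their nearest, close to the 1.02 of the brighter ID2 probe set, and its arrays within a group differed by 0.11 and 0.08. The difference was 1.12 ± 0.09, or 2.18-fold.

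ID4, whose protein can oppose the other ID proteins and is known from glioma and neural precursors, had 5 probe sets, and none had both miR-20a arrays above both miR-NT arrays. The brightest probe set, 229386_at, was at 5.85 and 5.93 log2 units in miR-20a cells and at 6.36 and 5.92 in miR-NT cells. The lower mean in miR-20a cells rested on miR-NT replicate 1, and without that array the difference was -0.03 in place of -0.25. Of the others, 209291_at (4.05 and 4.05 in miR-20a cells, 4.15 and 4.41 in miR-NT cells) and 226933_s_at (4.43 and 4.57 in miR-20a cells, 4.60 and 4.66 in miR-NT cells) had both miR-20a arrays below both miR-NT arrays. The remaining pair overlapped, with differences of 0.07 ± 0.12 for 209293_x_at and -0.04 ± 0.11 for 209292_at. The values carry no detection calls, so whether ID4 was above background in these cells cannot be told.

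BAMBI, a membrane protein built like a type I receptor but without a kinase, was at 8.52 and 8.64 log2 units in miR-20a cells and at 7.54 and 7.29 in miR-NT cells by its single probe set. The groups lay 0.98 apart at their nearest, against 0.12 and 0.26 between the arrays of a group. The difference was 1.17 ± 0.12, or 2.25-fold, at rank 15 of 41920 probe sets by signed size, close to ID2 at rank 17 and ID3 at rank 19. These ranks are among the values by which the genes were chosen.

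GREM1, the secreted antagonist that binds BMP2 and BMP4 and keeps them from their receptors, was read by a pair of probe sets that gave similar differences. By 218468_s_at it was at 13.22 and 13.07 log2 units in miR-20a cells and at 12.26 and 12.26 in miR-NT cells. By 218469_at it was at 13.06 and 13.02 in miR-20a cells and at 12.21 and 12.27 in miR-NT cells. The differences were 0.89 ± 0.10 and 0.81 ± 0.09, or 1.85-fold and 1.75-fold, and on neither probe set did the groups overlap. After quantile normalization they were 0.77 and 0.67, and neither was past the threshold over all probe sets.

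ATOH8, a bHLH factor of the atonal family known as a target of BMP signalling in endothelial and liver cells, differed among its 3 probe sets. The brightest, 228890_at, was at 9.87 and 9.91 log2 units in miR-20a cells and at 9.25 and 9.34 in miR-NT cells, a difference of 0.60 ± 0.09. A second, 1558706_a_at, was at 6.82 and 6.80 in miR-20a cells and at 6.11 and 6.48 in miR-NT cells, a difference of 0.52 ± 0.13, again without overlap. The third, 1558705_at, was at 8.81 and 9.02 in miR-20a cells and at 8.85 and 8.91 in miR-NT cells, so its groups overlapped. With the mean of the 3 probe sets in place of the brightest, the difference was 0.38.

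**Figure D2:**
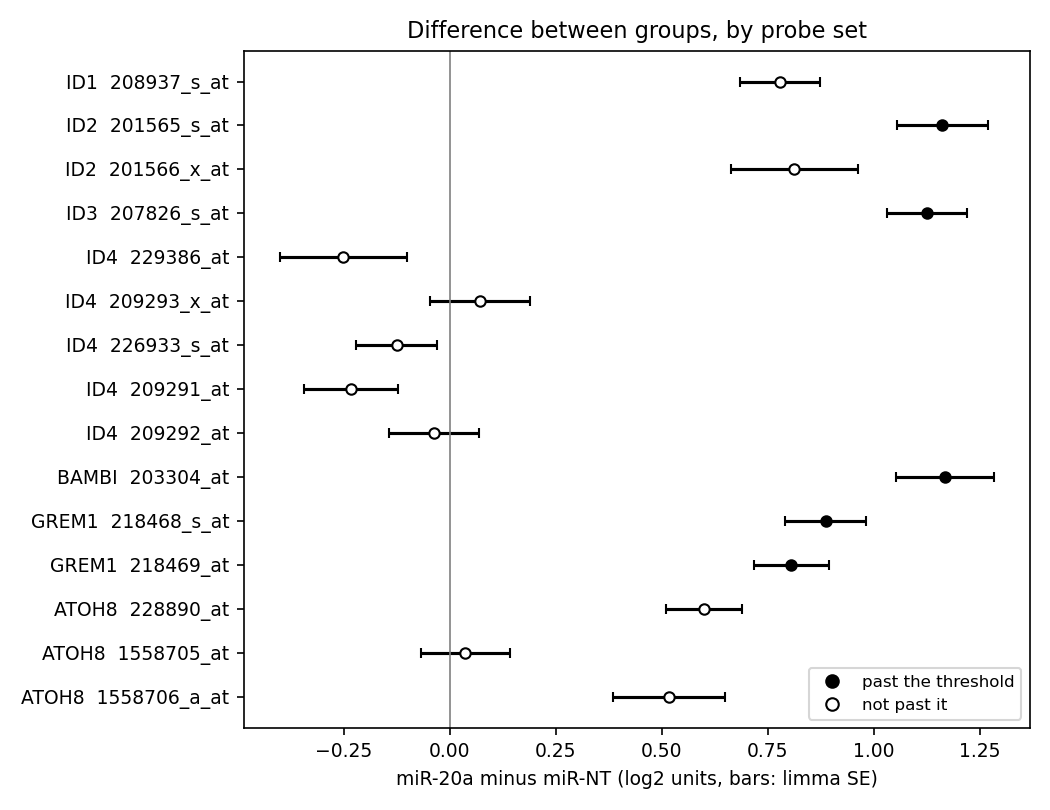
Difference between groups, miR-20a minus miR-NT in log2 units (horizontal axis), for each of the 15 probe sets, with bars of 1 limma SE on each side; filled points are the 5 past the adjusted threshold. The points of ID1, ID2, ID3, BAMBI and GREM1 lie between 0.78 and 1.17, and those of ID4 between -0.25 and 0.07.

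The differences kept their sign for ID1, ID2, ID3, BAMBI, GREM1 and the brightest ATOH8 probe set under every other setting that was run. In most settings this was fixed in advance. The filter, a block on replicate number and the variance model leave a difference unchanged. Where groups do not overlap, leaving out 1 array cannot turn its sign. Only the other normalizations and the mean of a gene's probe sets could have done so. The gene-level difference ranged over the 12 other settings between 0.63 and 0.84 for ID1, between 0.99 and 1.28 for ID2 and between 0.98 and 1.18 for ID3. It ranged between 1.04 and 1.30 for BAMBI, between 0.73 and 0.96 for GREM1 and between 0.38 and 0.64 for ATOH8. For ID4 it was negative in each of 11 settings, between -0.47 and -0.03, and its widest values came from leaving out 1 of the miR-NT arrays. The lowest values for ID1 and GREM1 came from quantile normalization and cyclic loess, and the lowest for BAMBI from leaving out miR-NT replicate 2.

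**Figure D3:**
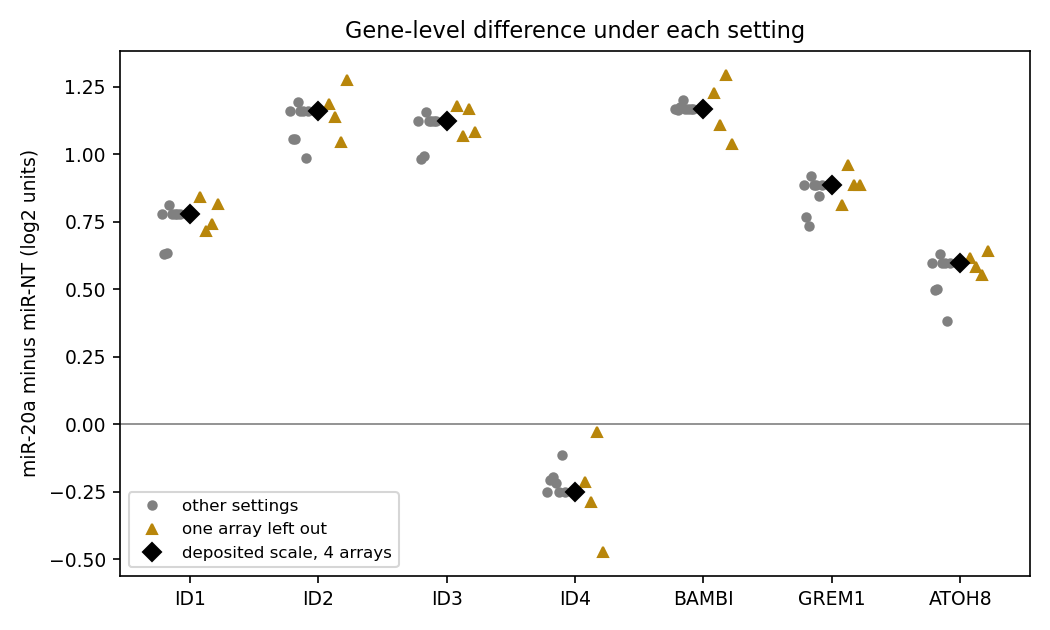
Gene-level difference, miR-20a minus miR-NT in log2 units (vertical axis), for each of the 7 genes: the black diamond is the deposited scale with 4 arrays, grey circles are other normalizations, filters and models, and triangles are fits with 1 array left out. All points of ID1, ID2, ID3, BAMBI, GREM1 and ATOH8 lie above 0, and all points of ID4 lie below 0.

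Signs of RNA quality differed between the groups in the same samples. For ACTB, 3′ control probes exceeded 5′ ones by 0.52 and 0.46 log2 units on the miR-20a arrays, against 0.20 and 0.35 on the miR-NT arrays, and for GAPDH by 0.27 and 0.28 on the miR-20a arrays, against 0.22 and 0.22 on the miR-NT arrays. Levels were also more widely spread on the miR-20a arrays, with SDs over probe sets of 1.91 and 1.89, against 1.85 and 1.85 on the miR-NT arrays. The part of either in the differences of the 7 genes was not tested. QKI, the knockdown target, was at 9.53 and 9.38 in miR-20a cells and at 9.18 and 9.38 in miR-NT cells by its brightest probe set, and 4 of its 10 probe sets had a higher mean in miR-20a cells. The summed level of 14 glial and glioma markers ranged from 116.1 to 116.3 on the miR-20a arrays and from 118.6 to 119.6 on the miR-NT arrays. Of the 14, 1 fell past the gene-level threshold, as did 0.0601% of all genes: CHI3L1, a secreted glycoprotein of mesenchymal glioma. At an unadjusted p under 0.05 (limma), 3 were lower and 0 higher, against 9.24% and 12.6% of all genes. In miR-20a cells 11 of these markers lay below and 3 above their miR-NT mean, with a median difference of -0.21. The sum over 5 blood markers ranged from 35.3 to 36.6 on the miR-20a arrays and from 36.2 to 36.3 on the miR-NT arrays. Over 7 epithelial markers it ranged from 46.6 to 46.9 on the miR-20a arrays and from 46.8 to 47.0 on the miR-NT arrays. Over 7 endothelial markers it was 47.9 on both miR-20a arrays and 48.7 on both miR-NT arrays. None of those 19 markers passed the test (limma), and without detection calls none can be called absent.

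Among other genes that BMPs and SMADs are known to induce, the inhibitory SMADs rose. Of 24 measured, 2 rose past the gene-level threshold and 0 fell, where 0.366% and 0.0601% of all genes did so. An unadjusted p under 0.05 was reached by 8 genes above and 1 below their miR-NT mean (limma), where 12.6% and 9.24% of all genes did so, and in miR-20a cells 12 lay above and 12 below their miR-NT mean. The median difference was 0.01, against -0.01 over all genes and 0.89 over the 7 genes, which were chosen with these values known. SMAD7, which blocks type I receptors of the whole TGF-beta family, was at 8.24 and 7.96 log2 units in miR-20a cells and at 7.16 and 7.19 in miR-NT cells, a rise of 0.93 ± 0.11 (SE, limma adjusted p = 0.037). SMAD6, which acts mainly on the BMP branch, was at 8.55 and 8.58 in miR-20a cells and at 7.93 and 7.91 in miR-NT cells by its brightest probe set, a rise of 0.64 ± 0.08 (limma adjusted p = 0.045). The other 3 probe sets of SMAD6 differed by 0.17, -0.08 and -0.10, and with the mean of the 4 the difference was 0.16. RUNX2, the osteoblast transcription factor, had a difference of 0.72 ± 0.13, a sign shared by 3 of its 6 probe sets, and SAMD11 one of 0.61 ± 0.10. Neither of these passed (limma). The SMAD7 and SMAD6 calls were lost without miR-NT replicate 1 (limma adjusted p = 0.41 and 0.45), without miR-NT replicate 2 (0.19 each) and, for SMAD6, without miR-20a replicate 1 (0.061).

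Other secreted BMP antagonists were spread about 0. None of the 16 measured passed (limma). An unadjusted p under 0.05 was reached by 4 above and 0 below their miR-NT mean (limma), where 12.6% and 9.24% of all genes did so. Of the 16, 7 lay above and 9 below that mean, with a median of -0.01. CRIM1, a membrane protein with BMP-binding repeats, was at 11.16 and 11.08 log2 units in miR-20a cells and at 10.34 and 10.52 in miR-NT cells, and its difference of 0.69 ± 0.10 was just short of the threshold (limma adjusted p = 0.053), with all 3 probe sets between 0.65 and 0.69. TWSG1, the BMP-binding protein twisted gastrulation, differed by 0.58 ± 0.14, positive on both of its probe sets, the follistatin-related FSTL1 one of 0.39 ± 0.09, a sign shared by 1 of its 2 probe sets, and BMPER, a BMP-binding endothelial regulator, one of 0.26 ± 0.10.

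Upstream of the ID genes, none of the measured ligands, receptors and receptor SMADs of the BMP branch passed. The ligand gene GDF6 and the type I receptor gene BMPR1A were listed but not measured. Of 18 measured, an unadjusted p under 0.05 was reached by 1 higher and 2 lower genes (limma), against 12.6% and 9.24% of all genes. Of these 18, 6 lay above and 12 below their miR-NT mean, and the median was -0.05. The type I receptor gene ACVR1 had a difference of 0.51 ± 0.11, from 9.44 and 9.22 log2 units in miR-20a cells and 8.73 and 8.92 in miR-NT cells. The ligand genes BMP6, BMP2 and BMP4 had differences of -0.37 ± 0.11, -0.23 ± 0.09 and -0.16 ± 0.09. For BMP6 the sign was shared by 2 of its 3 probe sets, and the difference was -0.145 with their mean.

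Downstream, none of the 19 measured E proteins and bHLH factors that ID proteins bind or oppose passed (limma). An unadjusted p under 0.05 was reached by 0 higher and 1 lower gene (limma), against 12.6% and 9.24% of all genes. Of the 19, 5 lay above and 14 below their miR-NT mean, with a median of -0.07. The members with the smallest p were the neuronal factor NEUROG1, at -0.24 ± 0.10, the muscle factor MYF5, at -0.23 ± 0.10, the blood factor LYL1, at -0.31 ± 0.15, and TWIST2, at 0.20 ± 0.11. The sign of TWIST2 was shared by 1 of its 2 probe sets, and its difference was 0.03 with their mean. Of 14 measured genes for ID turnover and other binding partners 0 passed (limma), with a median of 0.06. An unadjusted p under 0.05 was reached by 1 higher and 1 lower gene (limma), again against 12.6% and 9.24% of all genes. COPS5, a subunit of the COP9 signalosome, had a difference of 0.53 ± 0.10, and the anaphase-promoting complex activators CDC20 and FZR1 had differences of -0.23 ± 0.08 and -0.17 ± 0.08. The pocket protein gene RBL1 had one of 0.25 ± 0.13, a sign shared by 1 of its 4 probe sets, and 0.01 with the mean of its probe sets.

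Among 8 genes reported as repressed or kept low by ID proteins, 1 rose and 0 fell past the gene-level threshold, where 0.366% and 0.0601% of all genes did so. An unadjusted p under 0.05 was reached by 2 higher and 0 lower genes (limma), against 12.6% and 9.24% of all genes. The one that rose was THBS1, the antiangiogenic matrix protein that Id1 is known to repress in the mouse, at 11.05 and 11.01 log2 units in miR-20a cells and 9.37 and 9.41 in miR-NT cells, a rise of 1.64 ± 0.08 (limma adjusted p = 0.0062) with the same sign on all 7 probe sets. It thus stood higher in the samples in which ID1 stood higher, and its call was lost without miR-NT replicate 1 (limma adjusted p = 0.12) and without miR-NT replicate 2 (0.13). The CDK inhibitor genes CDKN1B, CDKN1A and CDKN1C had differences of 0.43 ± 0.13, 0.10 ± 0.08 and -0.10 ± 0.08, of which that of CDKN1A turned to -0.05 after quantile normalization and to -0.04 after cyclic loess. The median of the list was 0.03.

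Of 12 published targets of miR-20a or its family in the TGF-beta and BMP pathways or beside them, 2 rose and 1 fell past the gene-level threshold. Over all genes, 0.366% were higher and 0.0601% lower at that threshold. An unadjusted p under 0.05 was reached by 3 above and 3 below their miR-NT mean (limma), where 12.6% and 9.24% of all genes did so. The median was 0.06. The 2 that rose were SMAD6 and SMAD7, already described, and the one that fell was TXNIP, an inhibitor of thioredoxin, at 10.47 and 10.39 log2 units in miR-20a cells and 11.07 and 11.06 in miR-NT cells. It fell by 0.64 ± 0.09 (SE, limma adjusted p = 0.045), a call lost without any 1 of the 4 arrays, with adjusted p-values between 0.051 and 0.45. TGFBR1 had a difference of 0.34 ± 0.09, a sign shared by 1 of its 3 probe sets. TGFBR2 and E2F1 had differences of -0.27 ± 0.09 and -0.27 ± 0.08, each with that sign on 2 of 2 probe sets, and neither passed (limma).

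**Figure D4:**
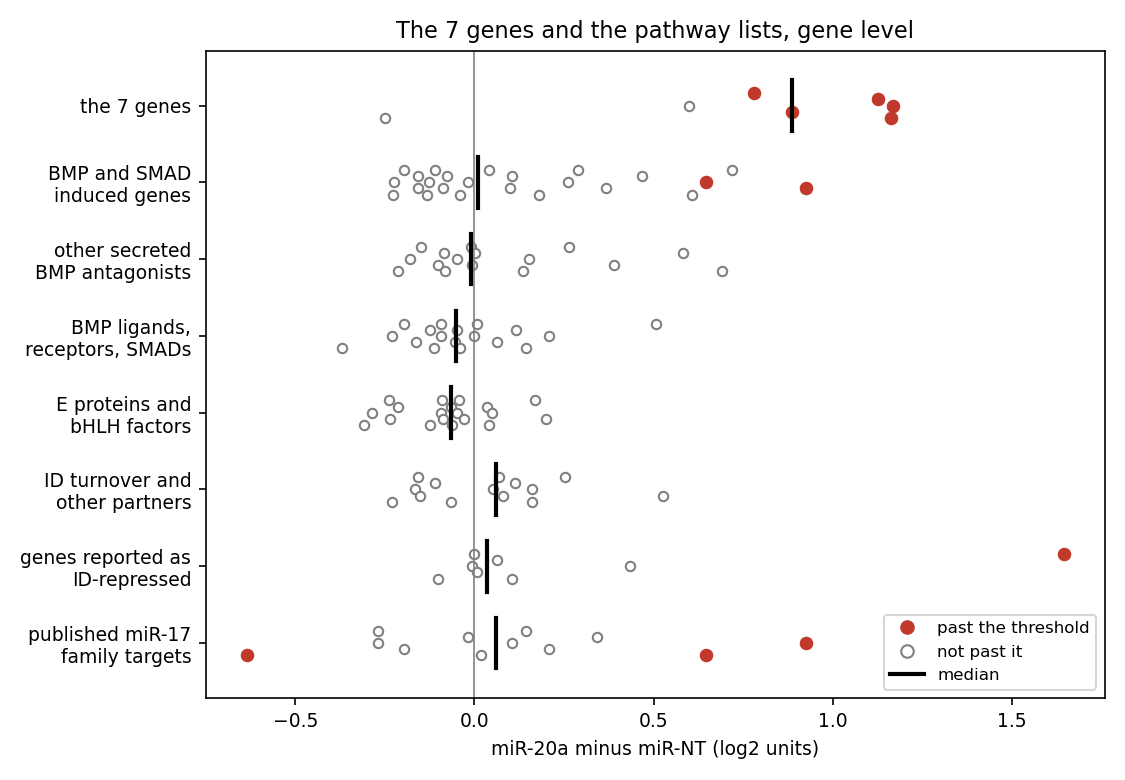
Gene-level differences, miR-20a minus miR-NT in log2 units (horizontal axis), for the 7 genes and for each of the 7 pathway lists; red points are past the adjusted threshold and black bars are medians. The medians of the lists lie between -0.07 and 0.06, and that of the 7 genes, chosen with these values known, at 0.89.

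The genes whose levels followed those of ID1, ID2, ID3 and BAMBI most closely were found among 18297 others by the distance between values on the 4 arrays, each gene centred on its own mean. Nearest to ID2 was SGK1, a serum- and glucocorticoid-induced kinase, at 10.87 and 10.84 log2 units in miR-20a cells and at 9.65 and 9.74 in miR-NT cells (distance 0.11), followed by EVI2A (0.14) and SCG5, a neuroendocrine chaperone (0.18). Nearest to ID3 were LRRC15, a membrane protein of mesenchymal cells (0.11), TIPARP, a mono-ADP-ribosyltransferase (0.14), and PRPS1, an enzyme of nucleotide synthesis (0.15). LRRC15 and TIPARP were also the nearest to BAMBI (0.18 and 0.22), followed by the metalloprotease gene ADAM10 (0.22). Nearest to ID1 were the Mediator subunit gene MED31 (0.07), DSTN, an actin-depolymerising factor (0.08), and MFAP5, a microfibril protein (0.09). With 4 arrays, nearness says little more than that these genes had differences of like size and close replicates.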

How the data were processed

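Expression was measured on 4 single-colour Affymetrix arrays, 2 of miR-20a and 2 of miR-NT cells, from 6 µg of total RNA each, per the labels' protocols. The deposited table gives 1 log2 level per probe set and array. Per the submitters' processing notes, the authors used affy. How they corrected background, normalized and summarized is not given in the sources used here. That the scale is log2 was read from its upper end, 15.07. The arrays carry no detection calls, and their number limits the precision. Arrays correlated at r = 0.995 within miR-20a, 0.996 within miR-NT and between 0.991 and 0.994 across groups, and no 2 columns were copies.

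GEO's platform annotation supplied the gene names: 37465 named 1 gene, 1727 several and 2728 none, and 0 symbols changed against RefSeq. The groups were compared with limma 3.58.1 (R 4.3.3; a linear model of group with eBayes, two-sided, Benjamini-Hochberg, threshold 0.05), over 41920 probe sets and over 18304 genes, each read from its brightest probe set by mean level, with no filter. An exact permutation test of 2 arrays against 2 cannot go below 0.333. Named were the 7 genes, QKI, SMAD6, SMAD7, up to 4 genes of each list with the smallest p, those past the threshold, and the 3 nearest profiles of 4 genes. TGFBR2 and E2F1 were named besides these and are not among the named list genes counted under other settings. The genes and lists, compiled from general knowledge, were chosen with earlier results of these data known. CHI3L1, and no other marker, is named from the marker lists, since it alone passed. The gene-level fit was tested on simulated data with independent noise for each gene and array. Those data held no effects common to an array, so they cannot show how such effects bear on the calls. Promoters and the microRNA came from RefSeq (GRCh38.p14), where all 7 genes matched. Other settings were a replicate block, quantile, cyclic loess and median scaling, removal of the lowest 40% by level, a trend and robust fit, the mean of a gene's probe sets, thresholds of 0.1 and 0.01, and each array left out.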

Additional observations from a re-analysis of the deposited data

Results flagged for a closer look

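Among the array controls, which were left out of the comparisons, 3′ probes for ACTB exceeded 5′ probes by 0.486 ± 0.042 log2 units on the miR-20a arrays and by 0.272 ± 0.105 on the miR-NT arrays (SD, n = 2 each). The excess of 3′ over 5′ probes was thus larger on the miR-20a arrays. Groups of 2 arrays are too small to look for an outlying array.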

How the results depend on the processing

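Among 243 values of the 7 genes under other settings, 223 stayed within the replicate SD of the reported value and 20 moved further. Of the 20, 18 were smaller differences after quantile normalization or cyclic loess. Most of the 243 could not move further, so the 223 say little about stability. Blocks, the filter and the trend and robust fit leave a difference unchanged, and leaving out 1 array shifts it by no more than this SD. Of the called differences, 0 changed sign. The uncalled ones of ATOH8 1558705_at, ID4 209292_at and ID4 209293_x_at took both signs across settings. Counts of calls also depended on the settings. With the replicate number as a block, 0 of the 15 member probe sets, 0 of the 7 genes and 0 genes of the pathway lists passed, as did 0 of all probe sets and genes (limma, 5754 and 3272 at an unadjusted p under 0.05). Same-numbered arrays deviated with a correlation of -0.12 across probe sets. With 2 arrays per group, this value cannot tell whether the numbers pair the samples, and the labels do not say. A crossed pairing, added after seeing the data, also left 0 in each count (limma, 7343 probe sets and 3843 genes at an unadjusted p under 0.05). Leaving out each array in turn gave between 0 and 4 member probe sets, between 0 and 5 of the 7 genes, between 0 and 5 pathway genes (4 with all arrays), between 0 and 66 probe sets in all (57 with all arrays) and between 0 and 203 genes (78 with all arrays), and each 0 came from leaving out a miR-NT array (limma, 3231 and 5097 probe sets at an unadjusted p under 0.05). In such fits the lone array of a group is assumed to vary like the other group. Quantile normalization and cyclic loess each left 3 member probe sets. Median centring gave 136 genes. Without the lowest 40% by level there were 334 probe sets, 1239 genes and 13 pathway genes, and with a trend and robust fit 8 member probe sets, 957 probe sets, 1212 genes and 13 pathway genes. The mean of a gene's probe sets gave 153 genes and 7 pathway genes. A threshold of 0.1 gave 159 probe sets, 904 genes and 11 pathway genes, and one of 0.01 gave 0 member probe sets, 0 of the 7 genes, 0 probe sets (limma, 7487 at an unadjusted p under 0.05), 2 genes and 1 pathway gene. The difference of CDKN1A, 0.10, turned to -0.048 after quantile normalization and to -0.036 after cyclic loess, and that of QKI, 0.18, to -0.080 with the mean of its probe sets. The cause of these changes was not tested. Of 370 values of named list genes, 317 kept their direction and side of the threshold.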
